A study of Mus musculus with 3 samples.

Results

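The MYC family and MAX network comprised 10 genes chosen by symbol, Myc, Mycn, Mycl, Max, Mxd1, Mxd3, Mxd4, Mxi1, Mnt and Mlx, out of 24421 gene lines, and all 10 were found under these symbols in every library. Of the 10, 9 were detected at 1 CPM (count per 1000000 assigned counts) or more in all libraries, against 46.6% of all gene lines. They were measured by RNA-seq in SB28, a mouse glioblastoma line on the C57BL/6 background whose labelled source is brain, in 3 replicate libraries of 1 group. SB28 is 1 line, grown from a tumour that was induced with oncogene-carrying transposons. The labels give no treatment, control or culture condition and do not say whether the replicates were separate cultures, so SDs and p-values refer to these samples alone, whose spread may be no more than technical. The question open to these files is which members the line expresses, in what proportions, and how stable those proportions were across libraries.

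MYC proteins are basic helix-loop-helix leucine zipper transcription factors that bind DNA only as dimers with MAX, chiefly at the E-box CACGTG, where they raise transcription of genes for ribosome building, nucleotide synthesis and cell cycle entry. MXD proteins (MXD1, MXI1, MXD3 and MXD4) and MNT compete for the same partner and the same sites and recruit SIN3 with histone deacetylases to lower transcription. MLX is a second hub that pairs with the glucose-sensing Mondo proteins and also with MXD1, MXD4 and MNT. MYC levels are raised in many gliomas, and MYCN is known from the developing nervous system and from childhood brain tumours.

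The E-box is the site that members of the network bind, so it was looked for in the members' own promoters. RefSeq promoter windows (GRCm38.p6, 250 bases before and 50 after a transcription start, 300 in all) were found for all members but Myc, in 11 windows of 9 genes, since Mxi1 has several starts. The motif CACGTG, which reads the same on both strands, lay in the windows of 4 of these 9 genes (Max, Mlx, Mnt and Mxd4), against 8.09% of 27025 genes with a window and 7.15% of 32851 windows. The 4 sites are shown with up to 50 bases on either side, in the direction of the gene and with the E-box in capitals, because they lie in genes of both hubs and of 2 antagonists whose levels are compared in the results. The site begins 3 bases before the RefSeq start of Max, 40 before that of Mlx, 123 before that of Mnt and 219 before that of Mxd4. A match is a description of the letters only, and binding was not measured.
Max, chr12:76962199-76962301, minus strand: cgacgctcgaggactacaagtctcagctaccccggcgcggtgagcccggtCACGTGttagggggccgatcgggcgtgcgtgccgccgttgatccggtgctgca
Mlx, chr11:101087200-101087305, plus strand: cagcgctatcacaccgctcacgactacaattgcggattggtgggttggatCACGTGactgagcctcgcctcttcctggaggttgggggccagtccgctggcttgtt
Mnt, chr11:74830751-74830856, plus strand: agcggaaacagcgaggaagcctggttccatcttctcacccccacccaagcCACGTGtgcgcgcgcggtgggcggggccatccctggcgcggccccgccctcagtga
Mxd4, chr5:34187874-34187960, minus strand: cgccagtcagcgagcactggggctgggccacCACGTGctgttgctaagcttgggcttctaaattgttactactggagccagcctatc

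The libraries held 28990128 to 36019009 counts assigned to genes. Replicate 3 stood apart: edgeR's common coefficient of variation beyond counting noise was 2.05% between replicates 1 and 2, but 21.9% between 1 and 3 and 21.6% between 2 and 3. A chi-square test against counting noise, adjusted over all genes, called 256 of 12746 genes between replicates 1 and 2 (2.01%), so they were close but not identical. They were counted as 2 samples, though these values do not show whether they came from separate cultures. Replicate 3 also had a larger share of reads outside annotated genes (6.54%, against 5.19% and 5.27% in replicates 1 and 2) and of reads with no unique position (9.58%, against 8.93% and 8.86%). Whether those shares play a part in any difference was not tested. The 4 glioma and neural stem markers fixed for the line, Nes, Vim, Sox2 and Cd44, were expressed in all libraries. Of 16 markers of astrocytes, oligodendrocytes, neurons, leukocytes, endothelium and red cells, 0 were detected, and Gfap, Aqp4, Olig2, Rbfox3, Cd3e, Cldn5, Hba-a1 and Hbb-bs were at 0 counts. Gfap and Olig2 were listed under astrocytes and oligodendrocytes only. These short lists describe the genes named and do not settle the cell identity of the line.

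Myc dominated the MYC proteins in SB28, Mycl was a minor transcript, and Mycn was nearly absent. Levels of different genes are compared as CPM per 1000 bases of exon (CPM per kb). Myc, on chromosome 15 at 61985391 to 61990374 (GRCm38), stood at 165, 161 and 171 CPM in replicates 1, 2 and 3, or 61.1 ± 1.83 CPM per kb (SD, n = 3). The 3 libraries lay close together, and the mean level exceeded that of 93.7% of detected protein-coding genes. Mycl, first found in lung cancer and on chromosome 4 at 122995652 to 123002485, had 9.52, 9.80 and 10.9 CPM, or 2.49 ± 0.178 CPM per kb. It was low in every library, above 21.3% of detected protein-coding genes.

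Mycn, on chromosome 12 at 12936093 to 12941914, had 3 counts in replicate 1, 1 in replicate 2 and 0 in replicate 3. A count of 0 allows up to 0.0919 CPM in replicate 3, counting error only. Over the pooled libraries, 16220 Myc counts against 4 Mycn counts gave a ratio per base of 4918 (exact Clopper-Pearson 95% interval 1920 to 18051, counting error only), and Mycl against Mycn gave 200.3 (78.0 to 737). Of the summed level of the 3 MYC genes, Myc made up 96.2%, 96.1% and 95.9% in replicates 1, 2 and 3. Within each library, Myc lay 24.5-fold above Mycl on the length-scaled level (range over libraries 23.4 to 25.8). That ratio was larger than the spread, meaning here that all libraries lay on one side of equality and the mean log2 ratio exceeded 2 SD.

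**Figure D1:**
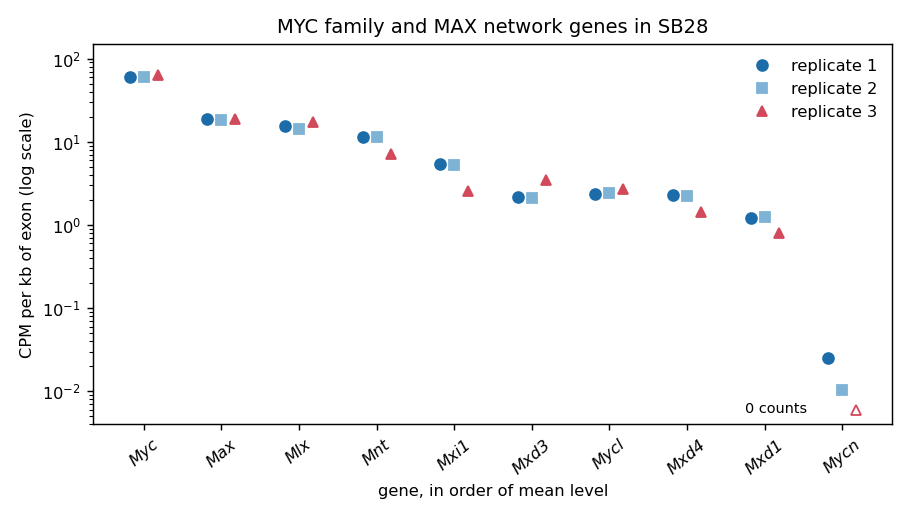
Level of each of the 10 genes in each of the 3 SB28 libraries, in CPM per kb of exon on a log scale, with genes ordered by mean level and the open symbol marking 0 counts. Myc stands highest at about 61.1 CPM per kb and Mycn lowest, and replicate 3 departs from the others at Mnt, Mxi1, Mxd3, Mxd4 and Mxd1.

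Both hubs were expressed at moderate levels and ranged little between libraries. Max encodes the obligate partner of the MYC proteins, which is also a partner of the MXD and MNT proteins. Max lies on chromosome 12 at 76937269 to 76962201 and had 66.9, 66.2 and 67.6 CPM. It was the steadiest member, with a coefficient of variation of 1.06% and 18.6 ± 0.196 CPM per kb. Mlx, on chromosome 11 at 101087277 to 101092207, had 30.8, 28.3 and 34.4 CPM, or 15.6 ± 1.54 CPM per kb, and was highest in replicate 3. Exons of Psmc3ip on the other strand cover 19.3% of the exon bases of Mlx, and with no strand setting stated, reads there cannot be assigned with certainty. Max stood 1.19-fold above Mlx per base (range 1.09 to 1.30). This narrow difference was larger than the spread over the 3 libraries. The call was lost without replicate 1 (log2 ratio of Mlx over Max -0.25) or without replicate 2 (-0.20). The size of the gap also depends on length. The log2 ratio of Mlx over Max was -0.26 with union exon length, -1.12 with the longest transcript and -1.10 with no length correction.

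All 5 antagonist genes were expressed, led by Mnt and Mxi1. Mnt, the widely expressed member of the group, on chromosome 11 at 74830920 to 74845725, had 52.5, 53.5 and 33.4 CPM (10.05 ± 2.45 CPM per kb). Mxi1, the gene of MXD2, on chromosome 19 at 53310518 to 53375810, had 37.2, 36.2 and 17.7 CPM (4.45 ± 1.61 CPM per kb). Both were lower in replicate 3 than in the other libraries. In bulk RNA, fewer cells of a type and less RNA per cell cannot be told apart.

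Mxd4, on chromosome 5 at 34173883 to 34187720, had 19.6, 18.7 and 12.2 CPM (1.98 ± 0.477 CPM per kb). Mxd1, linked to differentiation and on chromosome 6 at 86647042 to 86669161, had 8.52, 8.76 and 5.73 CPM (1.08 ± 0.238 CPM per kb). Both genes were lowest in replicate 3. Mxd3 ran the other way. This gene, known in the mouse from proliferating cells in S phase and lying on chromosome 13 at 55325168 to 55329823, had 5.19, 5.04 and 8.21 CPM (2.59 ± 0.756 CPM per kb), highest in replicate 3. Exons of other genes on the opposite strand cover 6.06% of Mxd4, 4.43% of Mxd3 and 2.84% of Mxi1 exon bases.

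Mnt supplied 50.4%, 51.5% and 46.5% of the summed antagonist level per base in replicates 1, 2 and 3. The share of Mxi1 was 24.2%, 23.6% and 16.7%, and that of Mxd3 was 9.74%, 9.47% and 22.3%. The summed level itself was 22.5, 22.4 and 15.5 CPM per kb, so replicate 3 held less antagonist transcript and more of it was Mxd3. These sums count transcripts only, and how much protein of each member the cells hold was not measured.

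**Figure D2:**
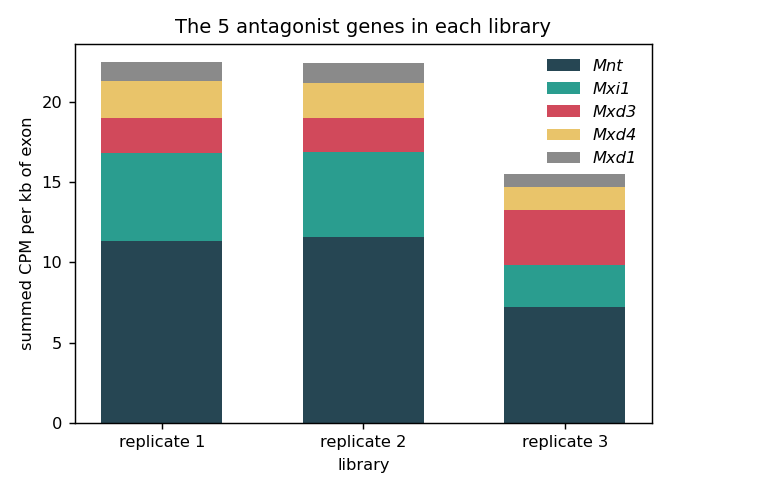
Summed level of the 5 antagonist genes in each library, in CPM per kb of exon, stacked by gene. The total is 15.5 CPM per kb in replicate 3, against 22.5 and 22.4 in replicates 1 and 2, and the Mxd3 segment is largest in replicate 3.

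In order of level per base, the members ran Myc, Max, Mlx, Mnt, Mxi1, Mxd3, Mycl, Mxd4, Mxd1 and Mycn. Of the 9 pairs of neighbours in this order, 5 differed by more than the spread: Myc over Max (3.28-fold), Max over Mlx, Mnt over Mxi1 (2.33-fold), Mxd4 over Mxd1 (1.82-fold) and Mxd1 over Mycn. The size of the ratio of Mxd1 over Mycn rests on the pseudocount, since Mycn had 4 counts in all. Mlx and Mnt, Mxi1 and Mxd3, Mxd3 and Mycl, and Mycl and Mxd4 stood apart by less than the spread. The order of Mxi1, Mxd3, Mycl and Mxd4 rests on which library is read. Mxi1 over Mxd3 was 1.31 and 1.32 on the log2 scale in replicates 1 and 2 and -0.42 in replicate 3, and Mxd3 over Mycl was -0.10, -0.19 and 0.36.

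A list of 19 ratios was fixed between members or their sums, with the network genes Mga and Mlxip as further denominators. Of these 19, 16 were larger than the spread. These include Myc over Mycn and Mycn over Mycl, whose size rests on the pseudocount. Every antagonist gene lay below Myc: Mnt over Myc was -2.64 ± 0.42 on the log2 scale of length-scaled levels with 0.5 counts added (mean ± SD, n = 3), Mxi1 over Myc -3.86 ± 0.65, Mxd3 over Myc -4.59 ± 0.35, Mxd4 over Myc -4.98 ± 0.42 and Mxd1 over Myc -5.84 ± 0.38. The 3 MYC genes together exceeded the 5 antagonists together by 3.20-fold, with log2 ratios of 1.49, 1.46 and 2.08 in replicates 1, 2 and 3. This ratio depends on length, since in counts uncorrected for length it was 1.67-fold and no longer larger than the spread. Max was 0.292 times the summed MYC level (range 0.286 to 0.297), with log2 ratios between -1.81 and -1.75. With the longest transcript as length, the mean log2 ratio of Max over the MYC sum was -1.10, against -1.77 with union exon length. Max and the antagonist sum were not separated beyond the spread, at log2 ratios of -0.27, -0.29 and 0.27.

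Mxd4 over Mxd3 did not exceed the spread either (0.07, 0.05 and -1.27), nor did Mnt over Mga (1.03, 0.82 and -0.05). Mnt over Mxd1 held within a narrow band, 3.23, 3.22 and 3.15, as both genes were lower in replicate 3. With 25 distinct pairs compared, the exact two-sided sign-flip permutation test could give no p below 0.25 for 3 libraries, and the smallest p after Benjamini-Hochberg adjustment was 0.3125.

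**Figure D3:**
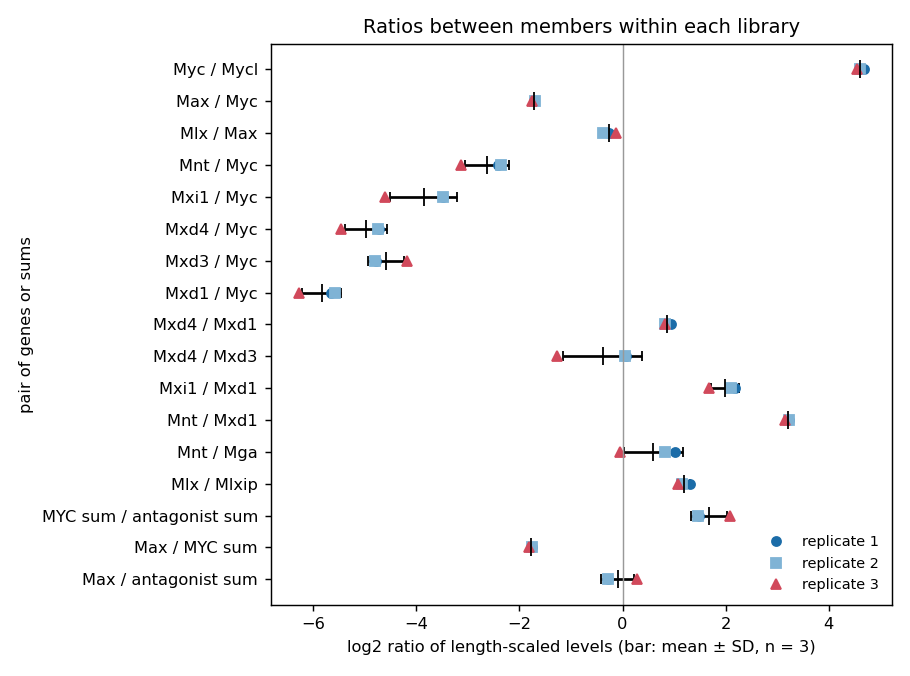
Log2 ratio of length-scaled levels for the fixed pairs without Mycn in each library, with a bar for mean ± SD (n = 3). Points for replicates 1 and 2 nearly coincide; replicate 3 lies left of them where Mnt, Mxi1, Mxd4 or Mxd1 is set over Myc, and right of them for the MYC sum over the antagonist sum.

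Between the 3 libraries, antagonist transcripts had the widest ranges of the 9 members tested, and Max the narrowest. Among 12737 genes tested, the chi-square test on TMM-scaled libraries with Benjamini-Hochberg adjustment called 65.7% at 0.05. Of the 9 members tested, 7 were called, a share near that of all genes. Max (adjusted p = 0.704) and Mycl (adjusted p = 0.201) were not called, and Mycn was too low to test. Without replicate 3, the same chi-square test called 0 of the 9, and 0 had an unadjusted p under 0.05, against 2.01% of all genes called. The differences among members therefore set replicate 3 against the other libraries. The test sets each library against counting error and bears on no condition.

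Among the members tested, the 5 antagonists ranged more widely than Myc, Mycl, Max and Mlx, a difference that rests on replicate 3. The members were chosen with earlier results of these data known. The highest library exceeded the lowest 2.09-fold for Mxi1 (adjusted p = 3.6e-55), 1.64-fold for Mxd3 (8.6e-08), 1.60-fold for Mxd4 (1.1e-13), 1.59-fold for Mnt (1.7e-37) and 1.52-fold for Mxd1 (2.2e-05). All 5 antagonists thus passed 1.5-fold, as did 22.6% of all genes tested. Of these, 4 were lowest in replicate 3, which 12.7% of all genes were at this size, and Mxd3 was highest there, as 8.87% were. Myc and Mlx were called with small ranges, 1.07-fold (adjusted p = 0.00499) and 1.23-fold (9.0e-05), both highest in replicate 3. Max ranged over 1.03-fold and Mycl over 1.15-fold. Gene-wise variation from edgeR was 10.1% for Myc and 10.001% for Max, above 6.01% and 4.45% of tested genes, and 29.1% for Mxi1, above 90.9% of them. These estimates are shrunk toward values shared with other genes, and the common value was 17.1%. The figure for Max is thus not variation measured in that gene, which the chi-square test did not call (adjusted p = 0.704).

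**Figure D4:**
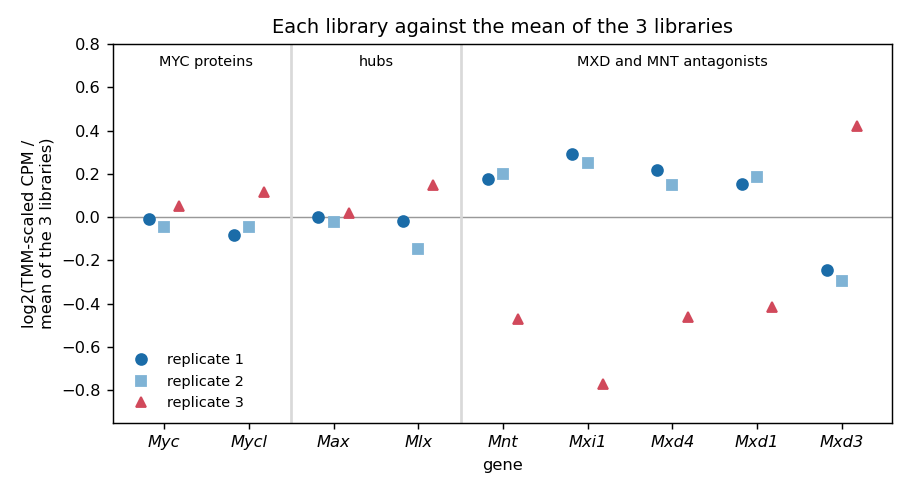
Log2 of TMM-scaled CPM in each library over the mean of the 3 libraries, for the 9 genes tested, grouped as MYC proteins, hubs and antagonists. Replicate 3 lies at -0.77 for Mxi1, -0.47 for Mnt, -0.46 for Mxd4 and -0.41 for Mxd1, at 0.42 for Mxd3, and within 0.15 of the mean for Myc, Mycl, Max and Mlx.

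Other genes of the network were present with the exception of Mlxipl. Mga, which joins MAX through its own zipper domain and belongs to a Polycomb complex, had 85.5, 100.6 and 115 CPM. Mlxip, the gene of MondoA, had 51.7, 52.8 and 68.2 CPM. Both were highest in replicate 3, with adjusted p-values of 1.5e-33 and 6.9e-22 by the chi-square test. Mga was also called between replicates 1 and 2, as were 2.01% of all genes. Mlxipl, the gene of the liver and fat factor ChREBP, had 1 count in all, in replicate 3. Mlx exceeded Mlxip by 2.27-fold per base (range 2.11 to 2.48), larger than the spread, but lay below it in counts uncorrected for length, at 0.545-fold.

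Partners of the 2 sides were expressed throughout. For comparison with this and each later list, 46.6% of all gene lines were detected. All 15 MYC cofactors of the fixed list were detected, with a median level of 19.3 CPM per kb, against 7.57 over detected genes. They were led by the ATPase Ruvbl1 (60.8 ± 4.06 CPM per kb), Hcfc1 (44.9 ± 6.23), Ruvbl2 (38.1 ± 3.76) and the acetyltransferase Kat2a (37.3 ± 6.20). Of them, 11 were called between libraries, against 65.7% of all genes. All 11 were highest in replicate 3 (33.1% of all genes were called with that direction). None of the 15 ranged over 1.5-fold, against 22.6% of all genes. Without replicate 3, 2 were called, Ep400 and Trrap, against 2.01% of all genes. All 14 genes of the SIN3 corepressor list were detected, at a median of 14.8 CPM per kb, led by the histone-binding gene Rbbp7 (153 ± 2.34), the deacetylases Hdac1 (42.8 ± 4.17) and Hdac2 (34.9 ± 0.665), and Rbbp4 (31.6 ± 0.443). Of these 14, 9 were called, 5 lowest (Hdac1, Sin3a, Ing1, Ing2 and Arid4b) and 3 highest (Rbbp7, Ncor1 and Sap18) in replicate 3, near the shares over all genes (31.5% and 33.1%), and 0 passed 1.5-fold. Without replicate 3, the chi-square test called 0 of the 14.

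All 16 genes listed for the control of MYC protein stability were detected, against 46.6% of all gene lines. Their median was 19.7 CPM per kb, against 7.57 over detected genes. The phosphatase inhibitor Set (130 ± 22.8 CPM per kb), the kinases Plk1 (46.5 ± 10.9) and Aurka (45.7 ± 13.1), and the ubiquitin ligase Stub1 (40.7 ± 1.80) led the list. Of them, 10 were called and highest in replicate 3 and 4 were called and lowest there (Gsk3b, Ppp2r5a, Usp28 and Btrc). Without replicate 3, 1 was called, the ubiquitin ligase Huwe1, against 2.01% of all genes. Over all genes, 33.1% were called and highest in replicate 3 and 31.5% called and lowest, so the share lowest lay near that of all genes. Aurka, a mitotic kinase that shields MYCN protein from degradation, had 98.1, 95.1 and 154 CPM. Fbxw7, the ubiquitin ligase subunit that marks MYC for degradation and chosen after its values were seen, had 22.2, 23.2 and 21.9 CPM and was not called (adjusted p = 0.661).

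Genes described as MYC-activated had a high median in every library and were mostly highest in replicate 3. Not every gene was high. The means of Tfap4 (6.97 ± 1.70 CPM per kb) and Tert (0.591 ± 0.103) lay below the median of detected genes, 7.57. All 30 of this list were detected, with a median of 58.5 CPM per kb; the medians were 56.0, 55.6 and 74.8 CPM per kb in replicates 1, 2 and 3, while the median of detected genes was 7.46, 7.45 and 7.59. Of the 30, 29 were called, 26 highest and 3 lowest in replicate 3. Over all genes, 33.1% were called and highest there and 31.5% called and lowest. The highest members were prothymosin alpha, Ptma (907 ± 16.2 CPM per kb), the nucleolar chaperone Npm1 (445 ± 63.6), the translation factor Eif5a (403 ± 33.7) and the mitochondrial chaperone Hspd1 (375 ± 64.0). Npm1 had 1095, 1081 and 1382 CPM, and Ptma differed little, with 1332, 1345 and 1299.

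In this list, 12 genes ranged over 1.5-fold, all highest in replicate 3, against 8.87% of all genes. Without replicate 3, the chi-square test called 0 of the 30, against 2.01% of all genes. The snoRNP protein gene Nop56, chosen after its values were seen, had the widest range of them, 174, 174 and 301 CPM. The ornithine decarboxylase gene Odc1, chosen in the same way, had 369, 365 and 556 CPM. Cdk4, also chosen so, had 411, 418 and 453 CPM. The 3 genes called and lowest in replicate 3 were Ptma, Ldha (1005, 988 and 841 CPM) and the cyclin gene Ccnd2 (579, 583 and 476 CPM). The lists were chosen with earlier results of these data known, so the counts describe these genes and are not independent evidence of a direction.

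Genes described as MYC-repressed were mostly lowest in replicate 3. All 14 were detected, and of 12 called, 10 were lowest and 2 highest in replicate 3. Of all genes, 65.7% were called, 31.5% as lowest and 33.1% as highest there. At 1.5-fold, 8 were lowest in replicate 3 and 0 highest, against 12.7% and 8.87% of all genes. The CDK inhibitor gene Cdkn2b had 94.7, 90.2 and 48.9 CPM, and the collagen genes Col1a1 (2045, 1957 and 1149) and Col1a2 (1497, 1482 and 717) showed the same order. Thbs1, the most abundant of the list, was higher in replicate 3, at 4713, 4722 and 5456 CPM. Cdkn1a, the gene of p21 and chosen after its values were seen, had 160, 164 and 74.4 CPM. The other gene highest in replicate 3 was the Notch target Hes1. Without replicate 3, the chi-square test called 1 of the 14, Col1a1, against 2.01% of all genes.

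**Figure D5:**
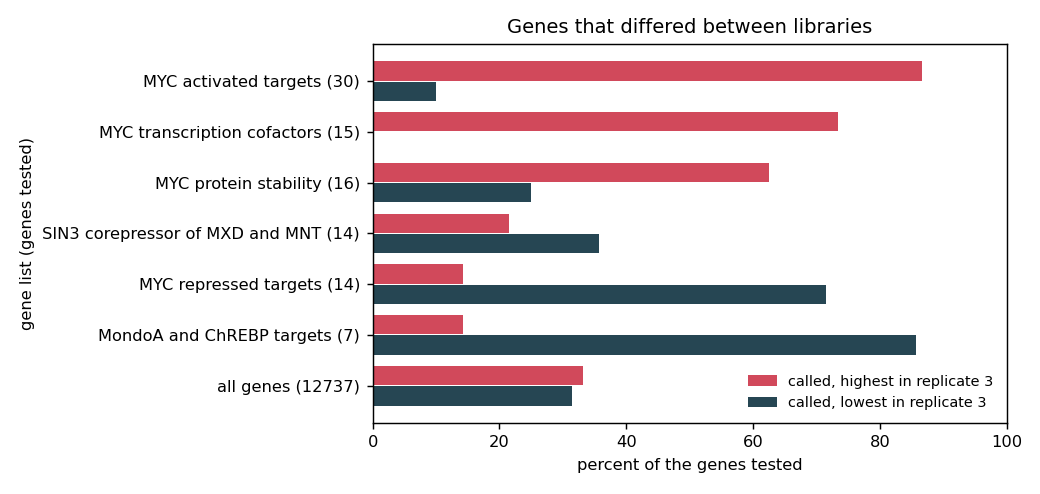
Percent of the genes tested in each list that were called different between libraries and were highest (upper bar) or lowest (lower bar) in replicate 3, with the number tested in parentheses. MYC-activated targets stand at 86.7% highest and 10% lowest, MYC-repressed targets at 14.3% and 71.4%, and all genes at 33.1% and 31.5%.

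Genes listed as targets of MondoA or ChREBP, the MLX and Mondo branch, were led by the fatty acid synthase gene Fasn (81.8 ± 8.75 CPM per kb) and the transketolase gene Tkt (34.9 ± 5.54). Mlxipl, the gene of ChREBP, had 1 count in all, and whether either factor acts on the listed genes was not tested. Txnip, which restrains glucose uptake and responds strongly to MondoA, stood at 16.0 ± 10.5 CPM per kb and hexokinase Hk2 at 14.5 ± 1.48. Of 9 genes, 7 were detected, and Pklr and G6pc, both genes of liver metabolism, had 0 counts. All 7 were called, 6 lowest and 1 (Hk2) highest in replicate 3. Of all genes, 65.7% were called, 31.5% as lowest and 33.1% as highest there. The chi-square test called 0 of the 7 between replicates 1 and 2, against 2.01% of all genes. Txnip had 66.7, 70.9 and 12.01 CPM, a 5.86-fold range and wider than that of any member. Arrdc4, a relative of Txnip also known as a MondoA target and chosen after its values were seen, had 7.50, 7.11 and 4.20 CPM. Mlx and Mlxip, by contrast, were each highest in replicate 3.

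All 7 genes of the Myc neighbourhood on chromosome 15 were detected, and they shared no single direction between libraries. The squalene epoxidase gene Sqle (53.7 ± 15.4 CPM per kb) had 346, 348 and 199 CPM, and Asap1 (46.4 ± 0.768) had 345, 342 and 353. Nsmce2 (15.1 ± 0.593) had 52.0, 50.2 and 48.1 CPM, and the pseudokinase gene Trib1 (14.5 ± 4.15) had 74.1, 77.5 and 121. The long non-coding RNA Pvt1, which lies beside Myc and was chosen after its values were seen, had 19.05, 21.04 and 17.9 CPM. Of the 7 genes, 5 were called, 3 lowest (Sqle, Fam84b and Pvt1) and 2 highest (Asap1 and Trib1) in replicate 3. These shares lay near those of all genes (65.7% called, 31.5% lowest and 33.1% highest there). Without that library the chi-square test called 0 of them, against 2.01% of all genes.

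Among 11084 detected protein-coding genes, those nearest to Myc in level per base over the 3 libraries, by root mean square difference of log2 CPM per kb, were Txndc17 (0.0081), Tnfaip1 (0.027) and Sdha (0.028). Nearest to Max were Necap1 (0.0086), Pdhb (0.020) and Cnot1 (0.022). This likeness over 3 libraries reflects level almost alone, as both members hardly varied.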

How the data were processed

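RNA-seq libraries from 1 µg of total RNA of SB28 cells were made with a TruSeq kit, per the labels. Each library has 1 deposited table of unnormalised read counts, keyed by gene symbol. Per the submitters' processing notes, Bowtie2 2.2.4, HTSeq (no version) and mm10 were used, with no role or option given; strand setting and annotation are not given in the sources used here. Each table ends in 5 summary lines, left out of library sizes; reads with no gene, several genes or no unique position made up 5.19% to 6.54%, 1.01% to 1.05% and 8.86% to 9.58% of all reads counted.

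CPM was computed over 36019009, 28990128 and 32632858 assigned counts. Detection required 1 CPM in every library. A count of 0 was read as at most 3 counts; such limits and intervals cover counting error only, since reads had no molecular identifiers. Symbols were matched to GENCODE M21 (GRCm38, the assembly of mm10): 23350 directly, 677 through RefSeq synonyms and 394 not at all. Levels were divided by union exon length; reads shared between overlapping genes can be lost. Ratios used a pseudocount of 0.5 counts. With 1 group there was no contrast to test. Libraries were compared by a chi-square test with 2 degrees of freedom after TMM scaling (edgeR 4.0.16, R 4.3.3), for a mean count of at least 10, and DESeq2 1.42.0 gave alternative size factors. Steps were tested on simulated counts that held counting noise alone, without the further variation seen between these libraries. Other steps ran in Python 3.11.15 with pandas 2.3.3, scipy 1.17.1, numpy 2.4.6 and, for plots, matplotlib 3.10.9.

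Members and lists were chosen with earlier results of these data known. Genes named by rule are all members, the 4 highest of each list per base, list members below 1 CPM in all libraries where fewer than 6, and the 3 genes nearest to Myc and Max. Further list genes are named to spell out counts or exceptions, or were chosen after their values were seen. Alternatives covered detection threshold, length, scaling, pseudocount, count filter, averaging replicates 1 and 2, and leaving out each library. Exome sequencing of the line was not analysed here.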

Additional observations from a re-analysis of the deposited data

How the results depend on the processing

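No paired analysis was possible because all libraries belong to 1 group. The 9 members detected were the same in number at 0.5 and 2 CPM, with TMM scaling and without any one library. The count of fixed ratios larger than the spread was 14 to 18 over the alternatives (16 as reported), and that of neighbour pairs 4 to 7 (5 as reported). Genes called between libraries numbered 256 to 8191 when 1 library was left out, and members called 0 to 7, the low end of each being without replicate 3; other scalings and filters gave 8345 to 8433 genes and 7 members. Without 1 library, the log2 ratio ranged from -0.32 to -0.20 for Mlx over Max (the call was lost without replicate 1 or 2), from -0.61 to 0.060 for Mxd4 over Mxd3 (positive without replicate 3), from 0.38 to 0.92 for Mnt over Mga and from -0.28 to -0.00087 for Max over the antagonist sum (both called without replicate 3), and from -0.15 to 0.13 for Mxd3 over Mycl (negative without replicate 3). With replicates 1 and 2 averaged, Mlx over Max was -0.22 and no longer called. With no length correction, Mxd4 over Mxd3 was 1.46, Mnt over Mga -1.13, Mlx over Mlxip -0.88, Mlx over Mnt -0.55, Mxd3 over Mycl -0.75 and Mycl over Mxd4 -0.71, all opposite in sign to the length-scaled ratio, and the MYC sum over the antagonist sum was 0.74 and not called. With the longest transcript as length, Mxd4 over Mxd3 was 0.046, Max over the antagonist sum 0.48 and Mycl over Mxd4 -0.31, again opposite in sign. The median level over the genes of all lists was 18.4 CPM per kb, 24.3 with the longest transcript and 89.7 in CPM without length. Which transcript of Max, Mxd1 or Mxd4 the cells use is thus a limit on these ratios, since counts per gene do not resolve it. For Mycn, 4 counts in all limit any ratio: Myc over Mycn rests on the pseudocount and is given only as a pooled ratio with its interval.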
